A study of Clio pyramidata with 8 samples.

Results

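The core transcripts described here are the 100 transcripts, of 27393 listed for the pteropod Clio pyramidata, with the highest floor of expression. Members were chosen by level alone: of each transcript the lowest of its 8 values, 1 per animal, was taken, and the 100 with the largest lowest value were kept, ties being broken by identifier. They make up 0.365% of the listed transcripts. Every one of them stood at 188.95 FPKM or more in every animal. FPKM is a fragment count divided by transcript length and by the number of mapped fragments, so levels can be compared between transcripts, and the authors scaled it between libraries by TMM, a factor meant to align the bulk of the transcripts. Because the levels chose the members, levels, shares and spread are given as descriptions, without tests.

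Clio pyramidata is a thecosome pteropod, a planktonic sea snail with an aragonite shell, a form of calcium carbonate that dissolves more readily as seawater takes up CO2. In animal tissues generally, the messenger RNAs that are abundant in every individual are largely those for ribosomal proteins, translation factors, the cytoskeleton and muscle, together with transcripts of the mitochondrial genome. The mRNAs for ribosomal proteins are known from other animals to be made in near-constant proportion to one another. The table names transcripts by number alone and no source used here pairs a number with a gene, a sequence or a length, so no member can be assigned to any of these classes and no tissue marker could be checked.

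Adults were kept at 15°C for at least 8 h and then held singly for 9 to 11 h in 20 mL of filtered seawater that contained streptomycin and ampicillin, each at 25 mg per litre, in both groups. The water had been equilibrated with gas of 800 ppm CO2 for animals A to D and with ambient air, about 380 ppm CO2, for animals E to H, 4 separate animals per group. RNA came from the whole body without the shell, by either of 2 extraction methods, and the labels do not say which animal had which. The series asked how the transcriptome responds to this short exposure. In whole bodies, more cells of a kind and more RNA per cell cannot be told apart.

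Read totals were not given, so the depth of each library is unknown. From the spacing of low values, the number of fragments behind 1 unit of FPKM was 21.3% of that in G in E and 25.2% in D, and 45.7% to 67.4% in A, B, C, F and H. This number follows the TMM factor of a library as well as its fragments, so it is not a measure of depth. Summed FPKM was highest in the same libraries, at 2202525 in E and 1574242 in D. Zeros made up 27.8% of the listed transcripts in D and 22.0% in E, and 2.57% to 9.15% in the other 6 animals. D and E therefore stood apart from the rest. Group differences in share, the median range, membership and the CO2 comparison are also given without them. Ranks, ratios to the members' median and counts of members by highest or lowest animal were not recomputed without them.

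One core transcript was far above the others. GAWL01040442 had the highest FPKM of all listed transcripts in each of the 8 libraries, at 252970 for A, 96106 for B, 301362 for C and 1035589 for D at 800 ppm. At 380 ppm it stood at 1292034 FPKM for E, 285229 for F, 61898 for G and 423170 for H. D and E were high, G and B were low, and the groups overlapped. Its lowest value was 22.9 times the next largest lowest value, 2707 FPKM, and it was also the member with the widest range, 20.9-fold between G and E.

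The other 99 lay much closer together. Their medians over the 8 animals ran from 328 to 7461 FPKM, and their single highest value was 23257 FPKM. Of the 100 members, 14 had a lowest value of at least 1000 FPKM, 55 one from 500 to 1000 FPKM and 31 one below 500 FPKM.

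Behind the most abundant transcript by floor came GAWL01011673, at 7850 FPKM for A, 8297 for B, 6777 for C, 2707 for D, 14457 for E, 4134 for F, 4732 for G and 7779 for H. Here D was the lowest animal, not one of the highest. GAWL01021219 followed, at 4985 FPKM for A, 2331 for B, 7731 for C, 23257 for D, 20689 for E, 7191 for F, 2161 for G and 10096 for H. Its highest pair (D and E) and lowest pair (B and G) were those of GAWL01040442, but here D lay above E. GAWL01033071 stood at 6625 FPKM for A, 5747 for B, 6296 for C, 3199 for D, 5534 for E, 1951 for F, 4761 for G and 4467 for H, so that F and D were its lowest animals.

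The next in order, GAWL01028947, was among the steadier members, between 1795 FPKM in H and 3685 FPKM in E. GAWL01024091 ran from 1755 FPKM in G to 14136 in E, GAWL01040444 from 1583 in G to 12267 in E and GAWL01040445 from 1576 in G to 7330 in E. The same 2 animals, G and E, marked the ends of GAWL01038785 (1182 to 10117 FPKM) and of GAWL01040452 (1164 to 9665 FPKM), which complete the 10 largest floors.

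The limit of membership fell in a continuous range of levels. The last members, GAWL01019120 and GAWL01032280, had lowest values of 201 and 189 FPKM, both in A. The first transcripts left out, GAWL01011591 and GAWL01005549, had lowest values of 188 FPKM in G and 187 FPKM in A. GAWL01011591 was left out because of G alone, since E stood at 256 FPKM and its other 6 animals lay between 782 and 1827 FPKM.

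**Figure D1:**
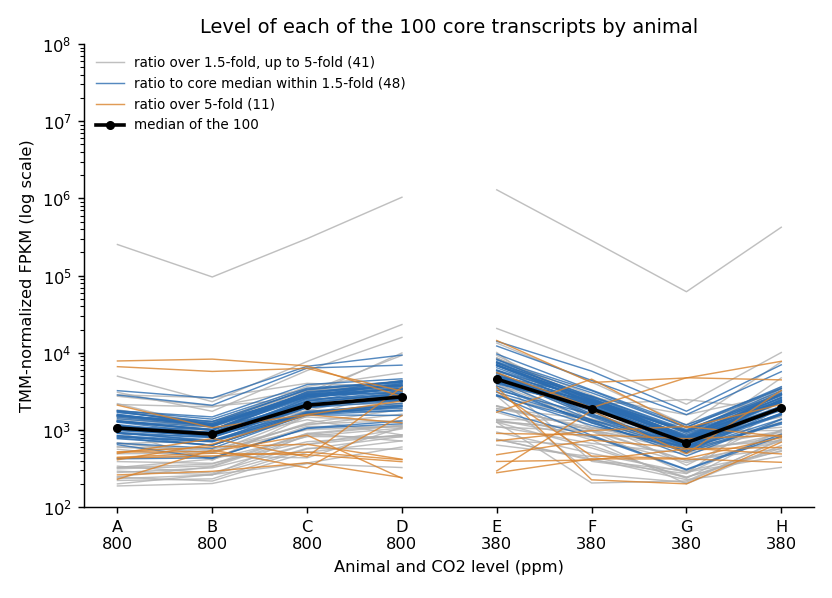
TMM-normalized FPKM (log axis) of each of the 100 core transcripts in animals A to D (800 ppm CO2) and E to H (380 ppm CO2), with the median of the 100 in black. The median was highest in E (4572 FPKM) and lowest in G (685 FPKM). The ratio to it varied by less than 1.5-fold for 48 transcripts in blue and by more than 5-fold for 11 in orange.

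The 100 transcripts held a large and variable part of the summed FPKM of every library. As FPKM is divided by transcript length, which is not given, this is not the part of the fragments that they held. Their share of summed FPKM was 41.3% for A, 29.8% for B, 54.5% for C and 85.0% for D at 800 ppm, and 80.6% for E, 66.5% for F, 31.3% for G and 51.4% for H at 380 ppm. Each group held animals from about 30% to over 80%, so the groups overlapped over nearly their whole range. The 800 ppm animals averaged 52.6% ± 23.8 (SD, n = 4), and the 380 ppm animals 57.4% ± 21.1 (SD, n = 4). This difference of -4.83 percentage points was smaller than the SD within either group. It turned to 2.78 without B and to 2.90 without E, grew to -15.6 with D left out, -13.5 with G left out and -7.88 with D and E left out together, and shrank to -1.04 without A and -1.82 without F.

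The share of the members varied between animals without GAWL01040442 as well. With this transcript taken out of both the members and the library total, the other 99 held 18.9% of the remaining FPKM for A, 17.9% for B, 33.5% for C, 56.0% for D, 53.1% for E, 43.7% for F, 20.4% for G and 26.3% for H. D, E and F were thus the highest and A, B and G the lowest, with both CO2 levels at each end. Mean shares were 31.6% ± 17.8 (SD, n = 4) for the 800 ppm animals, and 35.9% ± 15.2 (SD, n = 4) for the others. Their difference of -4.29 points turned to 0.282 without B and to 1.45 without E. With 1 other animal left out it was -0.0565 (A), -1.67 (F), -7.50 (H), -9.45 (G) or -12.4 (D), and with D and E left out together it was -6.71. The next 100 transcripts by floor held only 3.09% to 8.13% of the remaining FPKM in any animal.

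**Figure D2:**
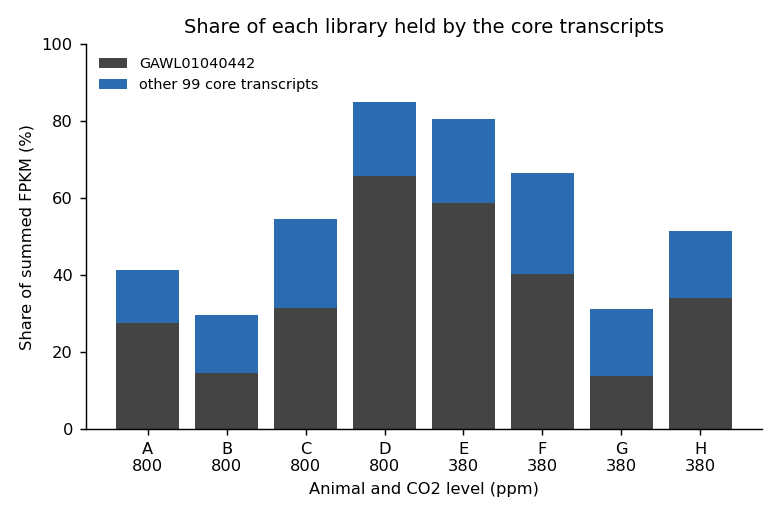
Share of summed FPKM (%) in each animal held by GAWL01040442 (dark) and by the other 99 core transcripts (blue), stacked, with the CO2 level in ppm under each animal. The whole bar is highest in D (85.0%) and E (80.6%), one at each CO2 level, and lowest in B (29.8%) and G (31.3%).

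The levels of most members varied together from animal to animal. E had the highest FPKM for 82 of the 100 and D for 10. G had the lowest for 73, A for 11, and B and D for 6 each. In 76 members the highest pair was D and E, in 82 the lowest 3 were A, B and G, and in 70 both held. The shares of tested transcripts with these animals at the ends were not computed, so the counts are not shown to be particular to the members. The median FPKM of the members was 1064 for A, 888 for B, 2096 for C, 2691 for D, 4572 for E, 1887 for F, 685 for G and 1927 for H. The order of animals was therefore largely common to the members, and it crossed the CO2 levels, since the highest and the lowest animal were both at 380 ppm. D and E, where the members were highest, were also the libraries with the fewest fragments per unit of FPKM and the most zeros, and the part of these in the members' levels was not tested.

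Which animal is highest depends on the scaling of the libraries. The median of all 19379 transcripts that averaged 1 FPKM or more, those entered in the CO2 test below and called tested here, lay between 1.99 FPKM in D and 3.70 FPKM in G. The members' median was 1663 times that value in E and 1352 times in D, and 185 times in G. With libraries set to the same median of tested transcripts, E was the highest for 73 members and D for 24, and G the lowest for 79. With libraries set to the same summed FPKM, F was the highest for 59 and E for 15, and A the lowest for 62. Under that scaling the median ratio of highest to lowest value fell from 7.12 to 2.53. The members are themselves 29.8% to 85.0% of that sum.

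Within this common variation, many members kept nearly constant proportions to one another. Each value was divided by the median of the 100 members in the same animal, which removes any scaling of whole libraries. For 48 members this ratio varied by less than 1.5-fold over the 8 animals, and for 63 by less than 2-fold. The FPKM of the 48 varied 4.76-fold to 9.82-fold, and all had their highest FPKM in E and their lowest in G. That range and the place of E follow from the cut-off, so they are not separate results. The median used as reference was itself 4572 FPKM in E, 2691 in D and 685 in G. Of the tested transcripts outside the 100, 11 stayed within the same 1.5-fold, 3 of them among the next 100 by floor. The ratio was computed for the 15400 tested transcripts above 0 in every animal, the members included. Tested transcripts had a median of only 1.99 to 3.70 FPKM per animal, and the part of low counts in this contrast was not tested.

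The examples that follow were picked after the values were seen and come from the steady end, so they do not stand for all members. GAWL01040466 stood at 1116 FPKM for A, 916 for B, 2363 for C, 2850 for D, 4579 for E, 1875 for F, 748 for G and 1972 for H. Its ratio to the median of the members was 1.05, 1.03, 1.13, 1.06, 1.001, 0.99, 1.09 and 1.02 in the same order. Its level thus changed 6.12-fold between animals and its proportion 1.13-fold. GAWL01040455 lay at a higher level, from 1093 FPKM in G to 8097 FPKM in E, with a ratio between 1.60 in G and 1.89 in H.

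The members themselves set the median used as reference, which favours steady ratios. When the 50 even-ranked members were instead divided by the median of the 50 odd-ranked ones, a check added after seeing the data, 17 of the 50 (34%) stayed within 1.5-fold and 32 within 2-fold, against 48% and 63% above.

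**Figure D3:**
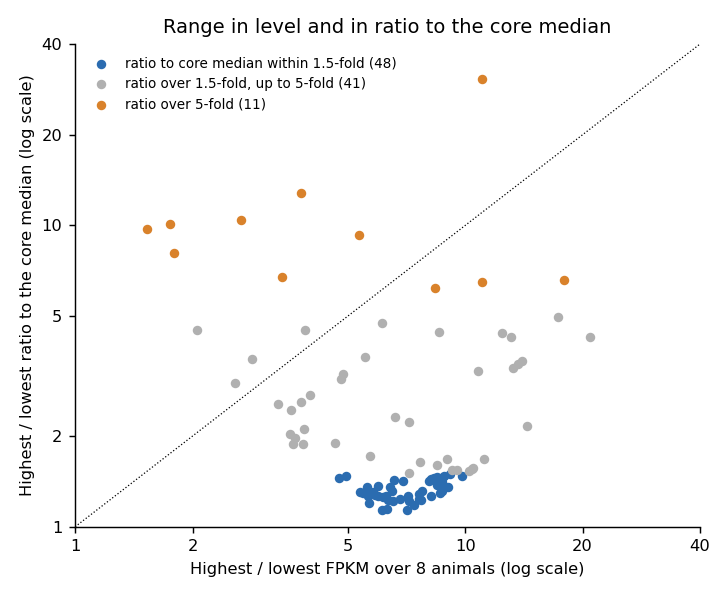
For each core transcript, the ratio of highest to lowest FPKM over the 8 animals (horizontal, log axis) and the ratio of highest to lowest value after division by the median of the members (vertical, log axis); on the dotted line both are equal. The 48 blue points lie between 4.76 and 9.82 on the horizontal axis and below 1.5 on the vertical one, and the 11 orange points lie above 5 on the vertical axis.

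A minority of members went their own way. For 11 the ratio to the median of the members varied by more than 5-fold, and these fell into kinds that differ in level, which were picked out after the values were seen. The steadiest in FPKM were among them. GAWL01028231 stood at 444 FPKM for A, 501 for B, 479 for C, 389 for D, 392 for E, 410 for F, 569 for G and 596 for H, a range of 1.53-fold. GAWL01027962 stood at 434 FPKM for A, 461 for B, 518 for C, 413 for D, 479 for E, 742 for F, 583 for G and 491 for H, a range of 1.80-fold. These had the smallest SD of log2(FPKM + 1) of the 100, and with GAWL01021191 (243 to 424 FPKM) they were the only 3 members within 2-fold in FPKM. Since the common level moved around them, their ratio to it varied 9.70-fold, 8.12-fold and 10.1-fold.

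Others had high ratios to the median of the members where that median was low. GAWL01033071 (values above) was 6.95 times the median of the members in G and 6.47 times in B, and 1.03 times in F. GAWL01011673 was 9.34 times the median in B, 6.91 times in G and 1.01 times in D, although its highest FPKM, like that of most members, was in E. GAWL01016713 alone of these was highest in G in FPKM itself, at 1113 FPKM, where 73 other members were lowest.

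In the remainder, 1 or 2 animals lay apart from the others. GAWL01033123 was 296 FPKM in E, its lowest animal, and 494 in G, against 1073 to 3263 FPKM in the other 6, and its ratio to the median of the members varied 30.6-fold, the widest of the 100. GAWL01040477 was 238 FPKM in D and 518 to 905 FPKM in the other 7. GAWL01040485 was 4566 FPKM in F, where it ranked 4th among all transcripts, and 412 to 2154 FPKM elsewhere. GAWL01040494 had the second largest SD of log2(FPKM + 1) after GAWL01040442, and stood at 231 FPKM for A, 553 for B, 324 for C, 1540 for D, 3613 for E, 227 for F, 201 for G and 697 for H. GAWL01019264, with 3596 FPKM in D and 3172 in E, lay between 429 and 798 FPKM in the other 6.

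A high floor did not mean a steady level. The ratio of highest to lowest FPKM over the 8 animals had a median of 7.12 over the members, with quartiles of 5.37 and 8.72. It was 4.37 over the next 100 transcripts by floor and 9.61 over the 15400 tested transcripts above 0 in every animal. The choice by lowest value bears on all of these, so they are not compared further. E decided much of the spread: the median ratio of the members was 4.08 without E and 3.31 without both D and E. The members' median SD of log2(FPKM + 1) was 0.79 at 800 ppm and 1.15 at 380 ppm, and 15 of the 100 had the larger SD at 800 ppm, beside 41.0% of all tested transcripts. Without E the 380 ppm value was 0.86, and without D the 800 ppm value was 0.69. With E alone left out, 30 members had the larger SD at 800 ppm. The share of tested transcripts was not computed for that case. The difference in spread was not tested.

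Ranks within a library do not depend on how libraries are scaled against each other. The median rank of the members by FPKM was 50.5 for D, 51.5 for F, 55.5 for E, 67.5 for C, 88.5 for G, 92 for H, 107 for A and 114.5 for B. The number of members among the 100 most abundant transcripts of a library was 46 for A, 41 for B, 71 for C and 85 for D, and 80 for E, 86 for F, 59 for G and 55 for H. A and B, both at 800 ppm, had the fewest and F and D, at different CO2 levels, the most. The worst rank of any member in any library was 426, in A. In all, 36 transcripts were among the top 100 of every library, whereas 217 were among the top 100 of at least 1 library and 66 of exactly 1. All of the 36 are members, which follows from the choice by lowest value.

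Many of the members carry neighbouring numbers in their identifiers. Between GAWL01040442 and GAWL01040500 the table lists 59 transcripts, and 46 of these are members. The 13 others of that stretch had lowest values from 0.27 to 180.93 FPKM. The stretch includes the most abundant transcript, and its 45 other members made up 46.0% of the FPKM of the other 99. Within it, the 23 members with the lower numbers had a median floor of 814 FPKM and the 23 with the higher numbers one of 541 FPKM. A smaller stretch, from GAWL01005457 to GAWL01005513, held 10 members among 55 listed transcripts, and 30 members had no other member within 20 numbers. Of the 46 in the main stretch, 30 stayed within 1.5-fold of a constant ratio to the median of the members, as did 18 of the other 54. How numbers were assigned, and whether neighbours are variants of one gene whose fragments could be divided between them, is not given in the sources used here.

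**Figure D4:**
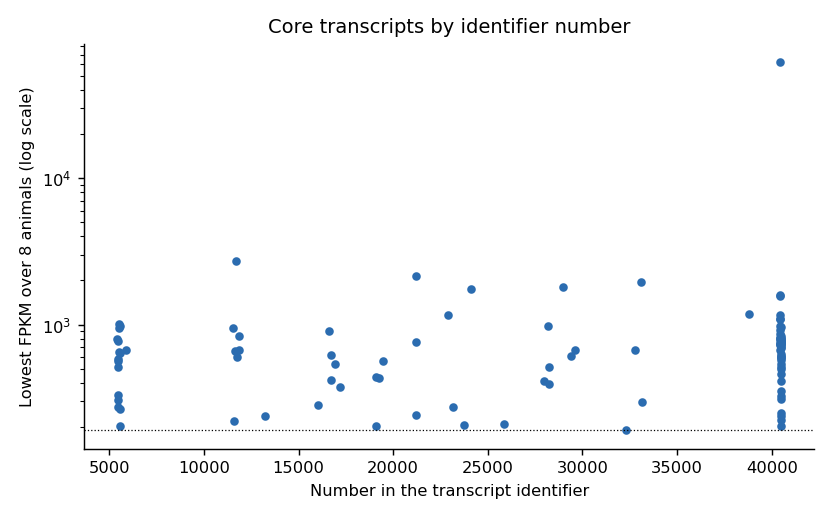
Lowest FPKM over the 8 animals (log axis) of each core transcript against the number in its identifier; the dotted line marks the lowest member, at 188.95 FPKM. The points stack up in a narrow column at 40442 to 40500, where 46 of the 100 lie, topped by GAWL01040442 at 61898 FPKM.

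No core transcript passed the test for a CO2 difference fitted over the whole table. The choice of members looked at the lowest of all 8 values without regard to group, so this difference played no direct part in it, although a high floor limits how low either group can lie. With limma on log2(FPKM + 1) and Benjamini-Hochberg adjustment over 19379 transcripts, an adjusted p under 0.05 was reached by 0 of the 100 with higher and by 0 with lower values at 800 ppm, and by 0% of all tested transcripts in either direction. The smallest limma adjusted p among the members was 0.997. At an unadjusted limma p under 0.05, 0 members were higher, beside 1.69% of tested transcripts, and 0 were lower, beside 2.67%. The smallest unadjusted limma p of a member was 0.102.

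The intervals were wide. The median 95% confidence interval of a member reached 1.66 to each side on the log2 scale, a factor of 3.15 in FPKM + 1, against 1.26 over all tested transcripts. This contrast depends on the added 1 FPKM and on the filter. With 0.1 FPKM added instead, the members reached 1.71 and all tested transcripts 1.85. With a minimum mean of 5 FPKM the values were 1.64 and 1.53. A 4-fold change in either direction bounded the interval of 60 members, and a 2-fold change that of 0. Changes smaller than these intervals could go undetected with these animals. The intervals are not adjusted for the number of transcripts tested, so larger changes could also miss the adjusted threshold.

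Estimated changes of the members leaned to lower values at 800 ppm, a lean that was lost without E or without B. The estimate was below 0 for 89 of the 100, beside 57.0% of tested transcripts, and the median log2 change was -0.25, beside -0.10 over all tested transcripts. As the members move together, the 89 are not separate observations. Without E, 24 were below 0 and the median turned to 0.18, beside -0.13 over all tested transcripts. Without B, 50 were below 0 and the median was -0.00030, beside -0.14. Leaving out A gave a median of -0.09, beside -0.16, and C one of -0.42, beside -0.17. Leaving out D gave -0.55, beside -0.01, G -0.75, beside -0.06, and D with E -0.11, beside -0.03. Members below 0 numbered 80 without A, 90 without C, 94 without D, 96 without G and 70 without D and E. The share of tested transcripts below 0 was not computed with animals left out. Without F the median was -0.27, beside -0.12, with 95 members below 0. Without H the median was -0.23, beside -0.09, with 85 below 0. With libraries set to the same summed FPKM it was -0.27, with 90 below 0 beside 58.7%, and at the same median of tested transcripts it was -0.09, with 79 below 0 beside 50.4%.

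The groups did not overlap for 2 of the 100, both lower at 800 ppm, beside 2.61% of tested transcripts, and for 0 in the other direction, beside 0.986%. GAWL01005485 stood at 328 FPKM for A, 420 for B, 824 for C and 816 for D, and at 1274 FPKM for E, 1049 for F, 861 for G and 1087 for H. The 800 ppm animals averaged 597 ± 260 FPKM (SD, n = 4), and those at 380 ppm 1068 ± 169 FPKM (SD, n = 4). The estimated log2 change was -0.94 (SE 0.59, limma adjusted p = 0.997). GAWL01016713 stood at 520 FPKM for A, 608 for B, 654 for C and 419 for D, and at 725 FPKM for E, 985 for F, 1113 for G and 823 for H. For this transcript the estimate was -0.73 (SE 0.55, limma adjusted p = 0.997). In neither was the gap between groups large: C and G differed by 37.3 FPKM in the former, and C and E by 71.0 FPKM in the latter. In either direction together, the 2 members stand beside 3.60% of tested transcripts. Without C, G or E there were 4 members, beside 5.77%, 5.11% and 10.2%, and without D there were 3, beside 7.63%. Without A, F, B or H there were 2, beside 4.44%, 4.69%, 7.32% and 7.32%. With D and E left out the groups did not overlap for 5 members, beside 16.0%. With all animals and libraries set to the same summed FPKM this count was 0, beside 1.65%, and at the same median of tested transcripts it was 1, beside 3.09%, again in either direction.

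The member with the smallest p was lower at 800 ppm but had overlapping groups. GAWL01040485 stood at 412 FPKM for A, 657 for B, 1580 for C and 1240 for D, and at 1706 FPKM for E, 4566 for F, 1069 for G and 2154 for H. G lay below C and D. The log2 change came to -1.27 (SE 0.71, limma adjusted p = 0.997). Among members with higher estimates at 800 ppm, GAWL01033123 had the smallest p, with a log2 change of 0.83, an SE of 0.83 and a limma adjusted p of 0.997. H at 380 ppm was its highest animal, at 3263 FPKM, and E its lowest. Its log2 change was 0.27 without E, 0.51 without G, 1.42 without H, 0.11 without D and E, and 0.18 with limma's array weights, by which libraries that deviate more count for less. GAWL01033071 came next, with a log2 change of 0.43, an SE of 0.59 and a limma adjusted p of 0.997. This value was 0.10 without F, 0.67 without D, 0.84 without D and E, 0.66 with array weights and 0.71 at the same median of the members. For GAWL01040442 itself the log2 change was -0.09 with an SE of 0.95 (limma adjusted p = 0.99989). Its mean was 421507 ± 418657 FPKM (SD, n = 4) in the 800 ppm animals, against 515583 ± 538612 FPKM (SD, n = 4) in those at 380 ppm.

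**Figure D5:**
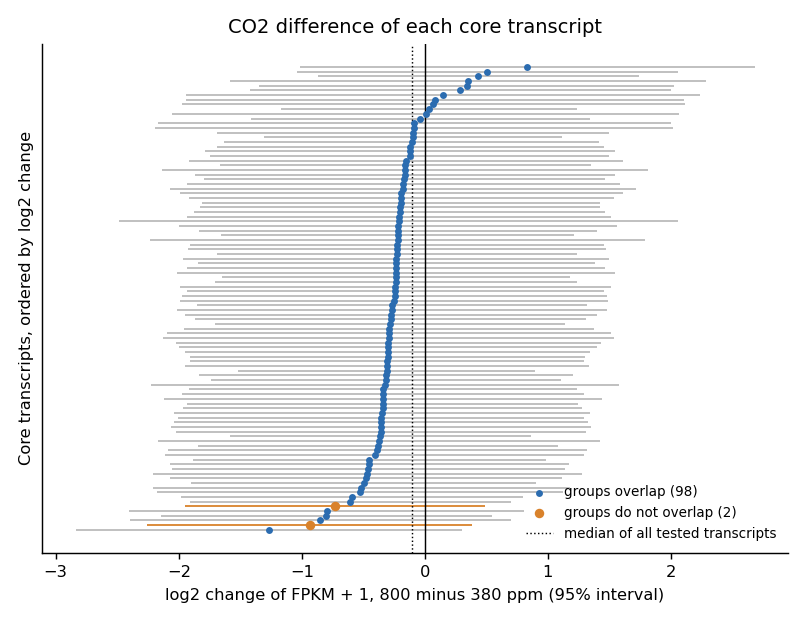
The log2 change of FPKM + 1 between 800 and 380 ppm CO2 (horizontal) for each of the 100 core transcripts, ordered by its size, with 95% confidence intervals from limma; the dotted line marks the median of all tested transcripts, -0.10. Every interval includes 0, those of the 2 members without overlap between groups (orange) included.

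Taking out the variation common to the members narrowed their own intervals, and the test again called no member. When all libraries were set to the same median of the core transcripts, a scaling added after seeing the data, the members' median interval reached 0.62 to each side on the log2 scale in place of 1.66, which follows in part from dividing by their own median. Over all tested transcripts the median interval widened from 1.26 to 1.62. Over the whole table limma again called 0 members at an adjusted p of 0.05, beside 0% of tested transcripts. At an unadjusted limma p under 0.05 there was 1 member higher, beside 1.86%, and 0 lower, beside 0.201%. This was GAWL01028228, named after its values were seen, with a log2 change of 0.78, an SE of 0.28 and a limma adjusted p of 0.99997. Under this scaling the groups did not overlap for 4 members, beside 2.24% in either direction. By construction it sets the members' own median change close to 0, at 0.03.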

How the data were processed

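The table deposited by the authors holds FPKM with TMM scaling between libraries, per its name, rounded to 2 decimals. Tools named in the submitters' processing notes, with no version or role, are Bowtie, edgeR and Trimmomatic. The assembly, its annotation and the program that counted fragments were not given in the sources used here. All 8 columns matched 1 sample each by title, and 0 columns were left out. The labels give no batch for any animal.

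The members and the comparisons were chosen with earlier results of these data known. Differences by CO2 were tested by limma 3.58.1 under R 4.3.3, with a trend of the variance on the level, on log2(FPKM + 1) of all transcripts averaging 1 FPKM or more, adjusted by Benjamini-Hochberg, with a threshold of 0.05. This scale understates changes of low transcripts, which the members are not. The code was tested on simulated data. Shares, ranks and ratios were computed with Python 3.11.15 and pandas 2.3.3. Relative fragments per FPKM were read from the most frequent ratio of low values between a library and G. For E this was also read through D, which gave 21.5%. Named were the 10 largest floors, the 2 steadiest and 2 most variable members, the 2 smallest p in each direction and the transcripts at the limit, with others said to be picked afterwards. Alternatives covered pseudocounts, filters, scalings, limma options, the number of members, and animals left out.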

Additional observations from a re-analysis of the deposited data

Results flagged for a closer look

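One value stood far from the others of its group. GAWL01040494 was 3613 FPKM in E against 697 FPKM in the next highest animal at 380 ppm, a gap of 0.855 of the whole range of that group, beyond Dixon's 95% critical value for 4 animals. Over all 100 members, E was so far above its group for 4 and D for 2. Such a gap arises by chance in about 1 of 20 groups.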

How the results depend on the processing

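The count of transcripts past the adjusted limma threshold was 0, for all tested transcripts and for the members, in all 18 alternatives, with a smallest adjusted p among the members between 0.571 (without D and E) and 0.99998. Other rules of membership shared 71 (mean FPKM) to 97 of the 100, 87 without D and E, and 88 to 100 with 1 animal left out. The median range of a member (7.12-fold) was 2.53 at the same summed FPKM, 1.54 at the same median of the members, 3.31 without D and E, and 4.08 to 7.12 with 1 animal left out. The count of members without overlap (2) was 0 for 50 members, 9 for 200 (4.5%, beside 3.60% of tested transcripts), 0 at the same summed FPKM, 1 at the same median of tested transcripts, 4 at the same median of the members, 5 without D and E (beside 16.0%), and 2 to 4 with 1 animal left out (beside 4.44% to 10.2%). The cause was not tested, except that fewer animals overlap less readily and longer lists hold more.

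Of 324 refits of 18 named members, 290 kept the direction of the log2 change. At the same median of the members it turned for GAWL01040442 (0.19), GAWL01011673 (0.0536), GAWL01021219 (0.11), GAWL01024091 (0.0400), GAWL01040444 (0.0505), GAWL01040445 (0.0388), GAWL01028231 (0.17) and GAWL01040494 (0.0601). At the same median of tested transcripts it turned for GAWL01040442 (0.0703) and GAWL01028231 (0.0593). Without D and E it turned for GAWL01011673 (0.51), GAWL01040445 (0.0746) and GAWL01040494 (0.12), and with array weights for GAWL01011673 (0.15). With 1 animal left out it ran from -0.87 to 0.59 for GAWL01040442, -0.46 to 0.15 for GAWL01011673, -0.76 to 0.35 for GAWL01021219, -0.11 to 0.24 for GAWL01028947, -0.79 to 0.21 for GAWL01024091, -0.75 to 0.24 for GAWL01040444, -0.56 to 0.18 for GAWL01040445, -0.0305 to 1.002 for GAWL01038785, -0.20 to 0.0030 for GAWL01028231 and -0.75 to 0.66 for GAWL01040494. No paired analysis was possible because the letters name separate animals and no number is shared between groups. The absolute depth behind a member is unknown.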
